A study of Mus musculus with 27 samples.

Results

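Interferon-stimulated genes and the chains of the major histocompatibility complex (MHC) class I were followed through 9 groups of mouse cells that lead from embryonic stem cells toward Sertoli-like cells. The genes were chosen by symbol: Ifit1, Ifit3, Isg15, Irf7, Usp18 and Oasl2, which are induced by interferon in most cell types, and B2m, H2-K1 and H2-D1, which encode class I. All 9 were matched to 1 gene each among the 48795 Ensembl genes of the files, and all 9 were among the 20839 genes with enough counts to be tested. The rule matches symbols and sets no threshold on a measured value, but the genes were picked with earlier results of these data known.

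Bulk RNA was sequenced as 3 libraries per group, 27 in all, with 35923040 to 84876603 counts per library. Every group came from the same embryonic stem cell clone, an XY line of the labelled strain F1:C57BL/6 x CBA that carries Tesco-CFP, a fluorescent Sertoli cell reporter, and R26-rtTA, the transactivator for doxycycline-driven genes (clone 7), so all values belong to 1 clone. Embryonic stem cells (ESC) were the starting culture, kept with the cytokine LIF at 1000 U/ml. Other components of their medium at harvest are not certain from the labels. Epiblast-like cells (EpiSC) had been kept for 60 h with bFGF, a fibroblast growth factor, at 12 ng/ml, Activin A at 20 ng/ml and knockout serum replacement at 1%, and mesoderm (M) then for 36 h in bFGF (20 ng/ml), BMP4 (10 ng/ml) and LY294002 (10 µM), a phosphatidylinositol 3-kinase inhibitor. The intermediate mesoderm cultures IM1 to IM5 lasted 3.5 days with bFGF (5 ng/ml) and BMP4 (20 ng/ml). IM1 held nothing further, IM3 had retinoic acid (100 nM), IM2 retinoic acid with Activin A (10 ng/ml), IM4 retinoic acid with the WNT agonist CHIR99021 (0.3 µM), and IM5 all 3. Induced Sertoli-like cells (iSLC) were IM3 cells that received lentiviruses carrying Nr5a1 and Dmrt1 for 24 h, then doxycycline (2 µg/ml) in a Sertoli medium with Activin A (50 ng/ml), and were sorted for CFP after 4 days. No group received virus without these factors, so virus, factors, medium, time and sorting cannot be told apart in any iSLC value. The study calls the libraries of a group biological replicates, and the labels do not say how far back the cultures were separate, so p-values measure the spread between these libraries.

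Interferons are secreted proteins that cells release when they sense foreign nucleic acids. Type I interferons bind the receptor chains Ifnar1 and Ifnar2, the kinases Jak1 and Tyk2 then activate STAT proteins such as Stat2, and these join Irf9 in a complex that binds the interferon-stimulated response element (ISRE) in the promoters of their target genes. Class I molecules carry peptides to the cell surface for inspection by CD8 T cells: a heavy chain such as H2-K1 or H2-D1 pairs with the light chain B2m after the transporter Tap1 and Tap2 has delivered the peptide. Pluripotent cells are known for a weak interferon response and for little class I on their surface. The transactivator Nlrc5 and NF-kB are both known to act on class I heavy chain promoters.

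The promoters of the members are shown first because they carry the letters through which these genes are usually grouped. Windows from 250 bases before to 50 after the start were given by RefSeq on GRCm38.p6 for 8 of the 9 members, and none was given for Usp18. The motifs searched, on both strands, were the ISRE core as GAAANNGAAA, the gamma-activated sequence GAS as TTCNNNGAA, and a kappa B site as GGGGATTCC. The ISRE letters were in the windows of Ifit1, Ifit3, Isg15 and B2m, against 3.44% of all 32851 windows. The kappa B letters were in those of H2-K1 and H2-D1, against 0.25% of all windows. The GAS letters were in no member's window and in 8.3% of all windows. A match describes letters only, and no binding was measured. Printed are the 200 bases before the start of each matched gene, on its own strand, with the ISRE letters in capitals for the first 4 and the kappa B letters in capitals for the last 2. Overlapping ISRE matches run together in Isg15.

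Isg15 (chr4:156200819-156201018, minus strand): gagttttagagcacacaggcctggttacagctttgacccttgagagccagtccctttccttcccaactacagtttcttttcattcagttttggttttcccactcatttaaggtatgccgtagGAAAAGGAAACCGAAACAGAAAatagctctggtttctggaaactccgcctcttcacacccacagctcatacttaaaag
Ifit1 (chr19:34640689-34640888, plus strand): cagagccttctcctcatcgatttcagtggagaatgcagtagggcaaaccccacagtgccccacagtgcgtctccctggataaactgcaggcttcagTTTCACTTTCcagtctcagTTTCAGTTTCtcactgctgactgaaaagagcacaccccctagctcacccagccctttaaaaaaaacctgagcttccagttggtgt
Ifit3 (chr19:34583329-34583528, plus strand): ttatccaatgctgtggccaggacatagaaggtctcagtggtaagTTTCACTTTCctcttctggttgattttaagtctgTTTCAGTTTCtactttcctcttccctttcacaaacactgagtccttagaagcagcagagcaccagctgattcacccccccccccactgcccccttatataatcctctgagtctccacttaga
B2m (chr2:122147487-122147686, plus strand): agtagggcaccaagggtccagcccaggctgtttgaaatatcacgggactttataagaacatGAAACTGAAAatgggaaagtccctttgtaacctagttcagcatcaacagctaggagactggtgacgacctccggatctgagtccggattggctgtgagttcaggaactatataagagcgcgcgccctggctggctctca
H2-K1 (chr17:34000348-34000547, minus strand): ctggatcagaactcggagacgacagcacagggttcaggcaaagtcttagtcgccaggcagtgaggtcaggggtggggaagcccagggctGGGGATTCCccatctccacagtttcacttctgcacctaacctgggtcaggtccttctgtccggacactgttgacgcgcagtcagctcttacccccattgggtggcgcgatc
H2-D1 (chr17:35262894-35263093, plus strand): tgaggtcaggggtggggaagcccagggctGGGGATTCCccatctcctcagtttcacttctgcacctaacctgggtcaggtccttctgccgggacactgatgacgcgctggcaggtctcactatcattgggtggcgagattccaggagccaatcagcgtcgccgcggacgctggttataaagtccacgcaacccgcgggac

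Isg15 held 3 ISRE matches between 78 and 57 bases before the start, of which neighbours overlap by 4 letters, and Ifit1 and Ifit3 held 2 each, on the opposite strand. B2m held 1, from 139 to 130 bases before the start. H2-K1 has a second RefSeq start, further downstream, whose window holds the same kappa B match, from 125 to 117 bases before it. Irf7 and Oasl2 had none of the 3 motifs in their windows, which says nothing of sites elsewhere. H2-K1 and H2-D1 had no ISRE match, but a search for exact letters misses variants of a motif, so a variant element there is not excluded.

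In the GENCODE annotation of GRCm38 all members are protein-coding genes. Ifit1 (chr19:34640871-34650009) and Ifit3 (chr19:34583531-34588731) lie on the same chromosome, as do H2-K1 (chr17:33996017-34000347) and H2-D1 (chr17:35262730-35267499) within the MHC. Isg15 lies at chr4:156199424-156200818, Irf7 at chr7:141262706-141266481, Usp18 at chr6:121245906-121270917, Oasl2 at chr5:114896936-114912234 and B2m at chr2:122147686-122153083. Of the stretches of 75 bases in the transcripts of Ifit3, 41.1% also occur in Ifit3b, so reads could be split between this pair and the values of Ifit3 are uncertain. Shares were 5.2% for Ifit1, 5.4% for H2-D1 and 3.1% for H2-K1, the latter pair with other class I genes. No such stretch was shared for Isg15, Irf7, Usp18, Oasl2 or B2m. Irf7 overlaps Phrf1 on the other strand over 1.2% of its exons and Usp18 overlaps Gm44148 over 4.4%, and the sources used here do not say if strand was used in counting. The cells carry a CBA haplotype beside the reference one, and reads lost to sequence differences between them in H2-K1 and H2-D1 were not measured.

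Levels are given as TPM, a value per transcript length that sums to the same total in each library. At the low end, Ifit1 and Ifit3 had mean levels of 0.422 and 0.669 TPM over all 27 libraries and Irf7 1.25 TPM. Usp18 and Isg15 averaged 3.12 and 4.17 TPM, Oasl2 12.2 TPM and H2-D1 12.2 TPM. H2-K1 and B2m were the most abundant members, at 54.8 and 105 TPM. Class I transcripts were measured in every group, including ESC, while the IFIT genes were close to a floor of 3 counts in the earliest groups (2 libraries of Ifit1 and 3 of Ifit3 were at or under it). All 9 members differed among the 9 groups by edgeR's quasi-likelihood test (adjusted p from 6.65e-25 for B2m to 4.79e-09 for Irf7), as did 96.4% of all genes tested.

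**Figure D1:**
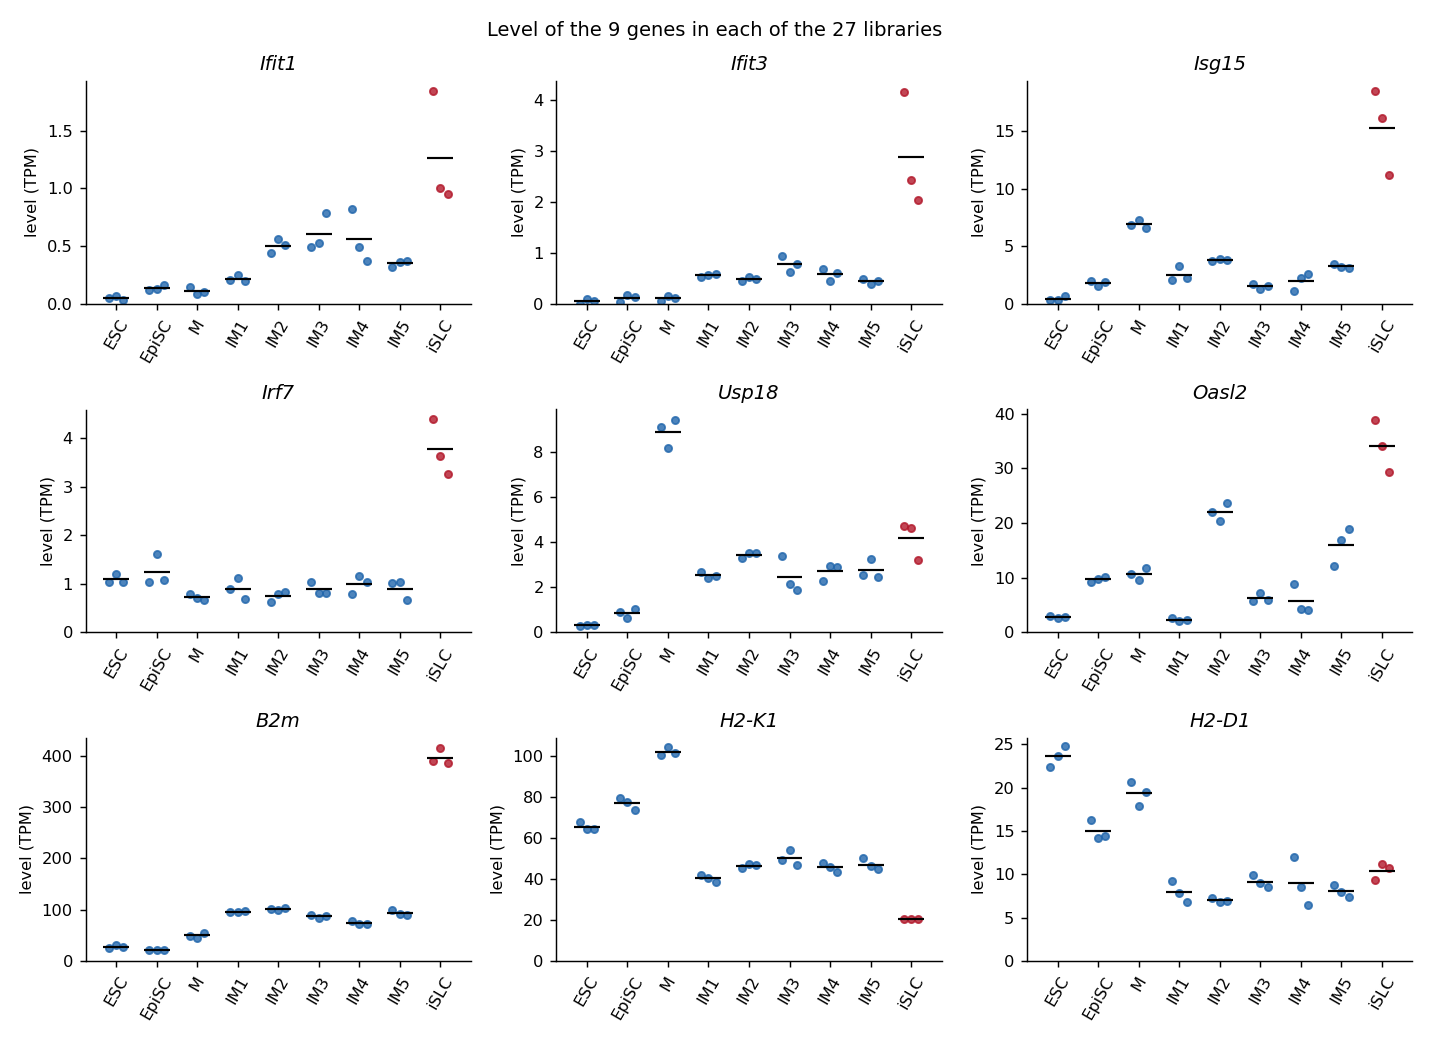
Level of each member in TPM (vertical axes, starting at 0) in the 9 groups (horizontal axes). Points are libraries, black lines are means of 3, and red points are iSLC. Of the 9 members, 6 have their highest mean in iSLC, Usp18 and H2-K1 in M, and H2-D1 in ESC. The share of all genes highest in iSLC was not counted.

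The order of the groups differed between members. Ifit1, Ifit3, Isg15, Irf7, Oasl2 and B2m were highest in iSLC, and no iSLC library of these 6 overlapped with the next group. The share of all genes that were highest in iSLC, with or without such overlap, was not counted, so these 6 have no background. Usp18 and H2-K1 were highest in M and H2-D1 in ESC. H2-K1 had its lowest mean in iSLC. The ratio of the highest to the lowest group mean was 57.7 for Ifit3, 33.7 for Isg15, 28.1 for Usp18, 25.3 for Ifit1, 18.4 for B2m and 14.7 for Oasl2. The ratios of Ifit3 and Ifit1 divide by ESC means of 0.05 TPM, from 0 to 6.0 and 3.0 to 7.0 counts per library, so their size is uncertain. The ratio was smaller for Irf7 (5.21), H2-K1 (5.01) and H2-D1 (3.39). Among the 8 pairs of neighbours in each order, the libraries overlapped in 7 for Irf7 and 6 for Ifit3, but in only 2 for Oasl2 and B2m.

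A change is given by a pair of rules. The study's thresholds are an adjusted p no higher than 0.01 (edgeR here), a change of 2-fold or more, and 100 or more normalized counts on average, both across the 27 libraries and in 1 of the groups compared. Isg15, Irf7, Ifit1 and Ifit3 had means of 83.7, 83.6, 36.7 and 36.2 normalized counts over the 27 libraries and could not pass the last of these, so changes are also given without the count minimum. "Rose" and "fell" refer to the adjusted p and the fold. Counts of members are set beside the share of all genes that passed the same rule, except where an alternative setting is given.

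Isg15, a ubiquitin-like protein that is attached to other proteins, and Usp18, the protease that removes it and also blunts signalling at Ifnar2, both moved over a wide range before any virus was used. Isg15 was at 0.32, 0.38 and 0.66 TPM in ESC, 2.02, 1.52 and 1.9 in EpiSC and 6.83, 7.30 and 6.61 in M. Each step separated all libraries. The log2 difference was 2.01 ± 0.32 (SE, adjusted p = 6.58e-06) from ESC to EpiSC and 1.81 ± 0.23 (adjusted p = 7.54e-08) from EpiSC to M. Usp18 was at 0.30, 0.31 and 0.34 TPM in ESC, at 0.89, 0.64 and 1.04 in EpiSC and at 9.08, 8.18 and 9.41 in M. The rise at M was 9.48-fold (log2 3.24 ± 0.19, adjusted p = 2.25e-14), and no other group reached the M libraries.

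Both genes fell again after M. Isg15 was at 2.12, 3.29 and 2.25 TPM in IM1 and at 1.73, 1.28 and 1.59 in IM3, which is 2.80-fold and 5.08-fold below M (adjusted p = 1.02e-06 and 4.63e-09). Usp18 was at 2.69, 2.41 and 2.50 TPM in IM1 and 3.37, 2.13 and 1.87 in IM3, or 3.79-fold and 3.87-fold below M (adjusted p = 1.05e-10 and 1.73e-10). Both comparisons share the M libraries. The pair parted in iSLC. Isg15 was at 18.5, 16.2 and 11.2 TPM there, 10.3-fold above IM3 (log2 3.36 ± 0.24, adjusted p = 1.66e-12), whereas Usp18 was at 4.70, 4.60 and 3.20 TPM, and its log2 difference of 0.69 ± 0.18 (adjusted p = 0.00113) stayed under the 2-fold minimum. IM3 replicate 1 overlapped with the iSLC libraries of Usp18, and without it the difference was 1.01 (adjusted p = 2.85e-05) and passed.

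Oasl2, a member of the 2'-5'-oligoadenylate synthetase family that carries ubiquitin-like domains, had its own pattern. It was at 3.04, 2.63 and 2.73 TPM in ESC and at 9.23, 9.82 and 10.0 in EpiSC, a 3.01-fold rise (log2 1.59 ± 0.21, adjusted p = 2.32e-07). M, at 10.7, 9.58 and 11.8 TPM, differed from EpiSC by 0.23 ± 0.18 on the log2 scale (adjusted p = 0.271). In IM1 the gene was at 2.56, 2.06 and 2.32 TPM, its lowest group, 5.68-fold below M (adjusted p = 3.54e-11). With retinoic acid, in IM3, it was at 5.65, 7.27 and 5.94 TPM, 2.85-fold above IM1 (log2 1.51 ± 0.22, adjusted p = 1.93e-06). IM3 lay 1.99-fold below M, just under the fold minimum (adjusted p = 6.70e-05). In iSLC it was at 38.9, 34.1 and 29.4 TPM, 5.14-fold above IM3 (log2 2.36 ± 0.19, adjusted p = 1.77e-11).

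Irf7, the transcription factor that amplifies type I interferon production once induced, kept a narrow range through the first 8 groups. Its libraries ranged from 0.62 to 1.61 TPM from ESC to IM5. From EpiSC to M it fell 2.06-fold (log2 -1.04 ± 0.20, adjusted p = 4.37e-05), a call that was lost without EpiSC replicate 2, at 1.61 TPM, where the log2 difference was -0.97. It was also lost with an offset for GC content (-0.75) or effective length (-0.82). That EpiSC library had 117.8 normalized counts, against 99.5 and 102.2 in the others, and a shorter estimated length (1793 bases against 2350 and 2334). In iSLC, Irf7 was at 4.4, 3.64 and 3.27 TPM, above every other library, and its counts were 2.73-fold higher than in IM3 (log2 1.45 ± 0.19, adjusted p = 1.67e-07). Its estimated length averaged 2216 bases in IM3 and 1413 in iSLC, so its TPM rose more than its counts.

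Ifit1 and Ifit3, whose proteins bind foreign RNA ends or their partners, rose in 2 steps from near 0. Ifit1 was at 0.03 to 0.07 TPM in ESC, 0.09 to 0.16 in EpiSC and M, and 0.49, 0.53 and 0.79 in IM3. Ifit3 was at 0 to 0.17 TPM in ESC, EpiSC and M, and at 0.94, 0.63 and 0.78 in IM3. The differences between IM3 and M were 4.53-fold for Ifit1 (log2 2.18 ± 0.34, adjusted p = 2.97e-06) and 6.13-fold for Ifit3 (log2 2.62 ± 0.43, adjusted p = 5.65e-06). These are folds between small counts, 8.0 to 13.0 for Ifit1 in M. In IM1, Ifit3 was already 4.66-fold above M (adjusted p = 4.55e-05), while Ifit1 was at 0.20 to 0.25 TPM and differed from M by 0.84 ± 0.36 on the log2 scale (adjusted p = 0.0399). Ifit1 was therefore 2.53-fold higher in IM3 than in IM1 (adjusted p = 0.000508).

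In iSLC, Ifit1 was at 1.84, 1.00 and 0.95 TPM and Ifit3 at 4.17, 2.44 and 2.04. Replicate 1 was the highest for both, and for Isg15, Irf7, Usp18 and Oasl2 as well. Ifit3 was 3.73-fold above IM3 (log2 1.9 ± 0.31, adjusted p = 4.4e-06) and Ifit1 2.13-fold (log2 1.09 ± 0.27, adjusted p = 0.000744). The Ifit1 call rested on 2 libraries. Without iSLC replicate 1 its log2 difference was 0.71 (adjusted p = 0.0228), and without IM3 replicate 1 it was 0.95 (adjusted p = 0.00755). The earlier rise of Ifit1 from ESC to EpiSC (log2 1.41 ± 0.45, adjusted p = 0.00821) was lost when any 1 of the 6 libraries was left out, with adjusted p of 0.0101 to 0.0503, and with DESeq2 (adjusted p = 0.0186). Counts for the pair in ESC were 0 to 7.0.

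B2m, the light chain shared by all class I molecules, was at 24.9, 30.0 and 27.04 TPM in ESC and 21.9, 21.0 and 21.9 in EpiSC. In M it was at 49.4, 44.4 and 54.8 TPM, 2.13-fold above EpiSC (log2 1.09 ± 0.081, adjusted p = 4.39e-12). It was higher still in the IM cultures, which lay between 71.9 and 104 TPM. The log2 differences from M, 0.89 ± 0.076 in IM1 and 0.62 ± 0.077 in IM3, passed the adjusted p but not the fold minimum. In iSLC, B2m was at 389, 415 and 386 TPM, 4.74-fold above IM3 (log2 2.25 ± 0.076, adjusted p = 1.54e-19). Of all 10 comparisons this is the largest change of a class I member.

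The heavy chains did not follow B2m after M. H2-K1 was at 67.9, 64.0 and 64.3 TPM in ESC, 79.2, 77.5 and 73.5 in EpiSC and 100.0, 104 and 101 in M. It then fell 2.36-fold to 49.1, 54.0 and 46.9 TPM in IM3 (log2 -1.24 ± 0.064, adjusted p = 2.02e-15) and 2.72-fold to 41.6, 40.4 and 38.6 TPM in IM1 (adjusted p = 6.04e-17). In iSLC it was at 20.2, 20.4 and 20.4 TPM, 2.40-fold below IM3 (log2 -1.26 ± 0.067, adjusted p = 2.50e-15). Those 3 libraries were closer to each other than the libraries of any other group. H2-D1 fell together with H2-K1 from M to IM3, from 20.7, 17.9 and 19.6 TPM to 9.96, 9.02 and 8.48 (2.42-fold, adjusted p = 4.23e-09). It did not follow H2-K1 in iSLC, where it was at 9.32, 11.1 and 10.7 TPM and differed from IM3 by 0.29 ± 0.14 on the log2 scale (95% interval 0.02 to 0.56, adjusted p = 0.0635).

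**Figure D2:**
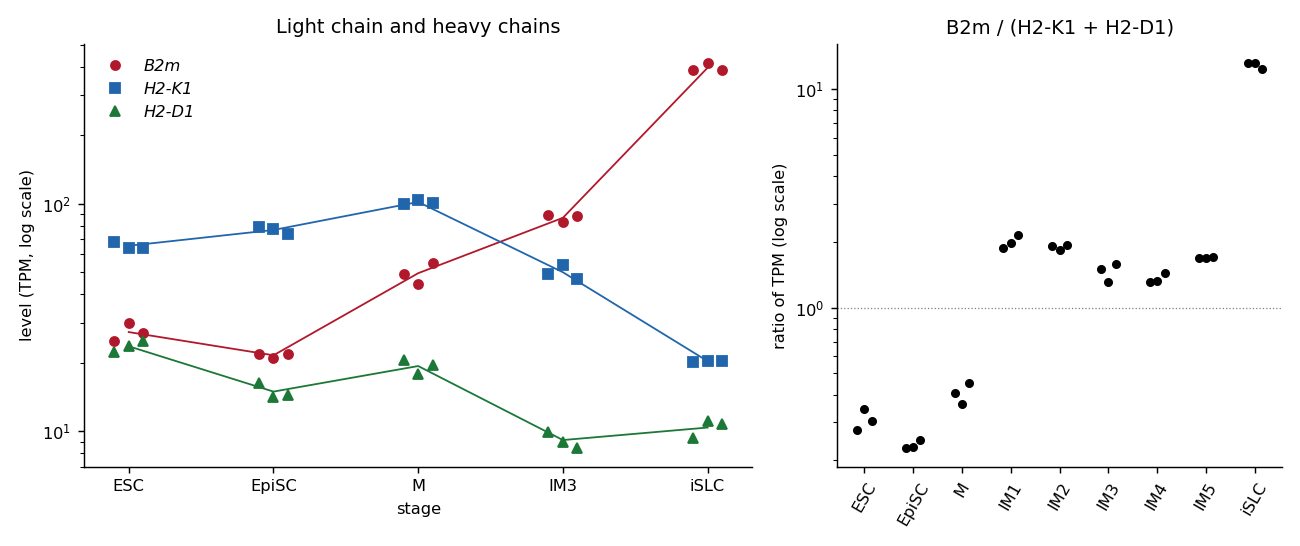
Left, level in TPM (log axis) of B2m, H2-K1 and H2-D1 along the path from ESC to iSLC, with a point per library and lines through the means of 3. Right, ratio of B2m to the sum of H2-K1 and H2-D1 in TPM (log axis) for each library of the 9 groups, with the dotted line at 1; the ratio was under 1 in ESC, EpiSC and M and over 12 in all iSLC libraries.

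On the TPM scale, the ratio of B2m to the sum of H2-K1 and H2-D1 was 0.307 in ESC (0.275 to 0.342), 0.236 in EpiSC and 0.409 in M. It was 1.36 to 2.00 in the 5 IM groups and 12.9 in iSLC (12.4 to 13.2). All libraries of ESC, EpiSC and M were at 0.454 or below, and all IM libraries were at 1.31 or above. The ratio of H2-K1 to H2-D1 was 4.93 to 5.99 in IM3 and 1.83 to 2.17 in iSLC. With the counts of 29 class I genes summed into 1 feature, among which reads could be split, the difference was smaller than for H2-K1 alone, and iSLC was below IM3 by -0.26 ± 0.056 on the log2 scale (adjusted p = 0.00021), under the fold minimum. The summed feature held 4574.4 to 5133.8 normalized counts in IM3 and 4028.7 to 4165.1 in iSLC. H2-K1 averaged 2318 and 965.3 normalized counts in these groups and H2-D1 486 and 594.1. The ratio of B2m to the 2 heavy chains therefore leaves out the other class I genes. From M to IM3 the summed feature fell by 1.13 (adjusted p = 9.00e-16), as H2-K1 did.

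Across the first steps, 4 of 9 members rose from ESC to EpiSC without the count minimum (Ifit1, Isg15, Usp18 and Oasl2) and none fell, against 18.4% of all genes in either direction. With the study's thresholds it was 1 (Oasl2), against 8.07%. From EpiSC to M, Isg15, Usp18 and B2m rose and Irf7 fell, 4 of 9 against 28%, and 2 of 9 (Usp18 and B2m) against 14.5%. The median log2 difference of the 6 interferon-stimulated members was 1.5 from ESC to EpiSC, where that of all genes was -0.003, and 0.05 from EpiSC to M, where that of all genes was -0.056. Red blood cell markers (6 genes) summed to 11.7 to 91.0 TPM in ESC, 1.57 to 2.31 TPM in EpiSC and 42.4 to 80.0 TPM in M. Leukocyte markers (12 genes) summed to 39.9 to 43.0 TPM in ESC, 18.6 to 20.3 in EpiSC and 5.26 to 7.45 in M. The part of these markers in the differences at both steps was not tested.

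From M to the IM cultures, more members fell than rose. In IM1, 6 of 9 passed without the count minimum (27.9% of all genes), 5 down and Ifit3 up. With the study's thresholds it was 4 (15.7%): H2-K1, H2-D1, Oasl2 and Usp18. In IM3 it was 6 of 9 (25.9%), with Isg15, Usp18, H2-K1 and H2-D1 down and Ifit1 and Ifit3 up, and 3 (14.9%) with the study's thresholds. The count in IM3 is 4 with an offset for GC content, under which Oasl2 passed (log2 -1.19). IM1 and IM3 were compared with the same M libraries. Markers of other cell types also moved at this step, and their part was not tested. Endothelial markers (6 genes) summed to 52.5 to 65.5 TPM in M, nearly all of it Kdr (58.4 TPM), to 139 to 149 TPM in IM1 and to 72.3 to 83.6 TPM in IM3. The 6 did not move together. Kdr fell to 38.4 TPM in IM1 and 18.8 in IM3. Cdh5 was at 0.267 TPM in M, 42.3 in IM1 and 11.5 in IM3. Pecam1 was at 0.92, 28.1 and 10.1 TPM in these groups and Cldn5 at 0.553, 16.4 and 7.54 TPM. Tek (0.0933, 17.8 and 26.8 TPM) and Emcn (0.0233, 1.37 and 2.33 TPM) were higher in IM3 than in IM1. Red blood cell markers summed to 3.06 to 4.54 TPM in IM1 and 21.3 to 74.4 TPM in IM3, and leukocyte markers to 9.85 to 10.8 and 12.2 to 12.6 TPM.

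Members were also compared between media that differed in 1 factor. Retinoic acid, IM3 against IM1, changed 2 of 9 without the count minimum (Oasl2 and Ifit1, both up, against 12.0% of all genes) and 1 with the study's thresholds (Oasl2, against 6.34%). CHIR99021 changed no member, either alone (IM4 against IM3, 0.173% of all genes without and 0.101% with the count minimum) or with Activin A present (IM5 against IM2, 0.485% and 0.235%). In edgeR the smallest adjusted p of a member was 0.26 (B2m, log2 -0.19, 95% interval -0.34 to -0.05) in the first and 0.195 (Oasl2, log2 -0.38, 95% interval -0.72 to -0.04) in the second. These were also the only members with an unadjusted p under 0.05, 1 of 9 in each comparison, and DESeq2 called 0 of 9 in both. For Oasl2 with CHIR99021 alone the 95% interval was -0.43 to 0.37 on the log2 scale.

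Activin A moved Oasl2 in both settings, which share no libraries. Red blood cell markers also differed in both, and their part was not tested. They summed to 1.62 to 1.86 TPM in IM2 and 1.88 to 3.04 TPM in IM5. In IM3 they summed to 21.3 to 74.4 TPM and in IM4 to 30.8 to 72.1 TPM. Leukocyte markers summed to 9.85 to 10.9 TPM in IM2, 12.2 to 12.6 in IM3, 9.5 to 13.7 in IM4 and 11.2 to 13.7 in IM5. Without CHIR99021, Oasl2 was at 22.1, 20.3 and 23.7 TPM in IM2, 3.65-fold above IM3 (log2 1.87 ± 0.19, adjusted p = 1.29e-08). With CHIR99021, it was at 12.1, 17.0 and 19.0 TPM in IM5 against 8.89, 4.2 and 4.11 in IM4, a 2.86-fold rise (log2 1.52 ± 0.19, adjusted p = 2.90e-07). IM4 replicate 1 stood above the other 2 libraries of its group, and without it the log2 difference was 1.98. Isg15 was at 3.73, 3.88 and 3.79 TPM in IM2, 2.58-fold above IM3 (log2 1.37 ± 0.26, adjusted p = 0.000126). In IM5 it was at 3.44, 3.20 and 3.14 TPM against 1.11, 2.24 and 2.56 in IM4, and the log2 difference of 0.81 ± 0.24 (adjusted p = 0.00726) was under the fold minimum, though it was 1.01 and passed without IM4 replicate 3. B2m was higher with Activin A by 0.29 ± 0.075 and 0.43 ± 0.075 (adjusted p = 0.00305 and 3.69e-05), also under the minimum.

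**Figure D3:**
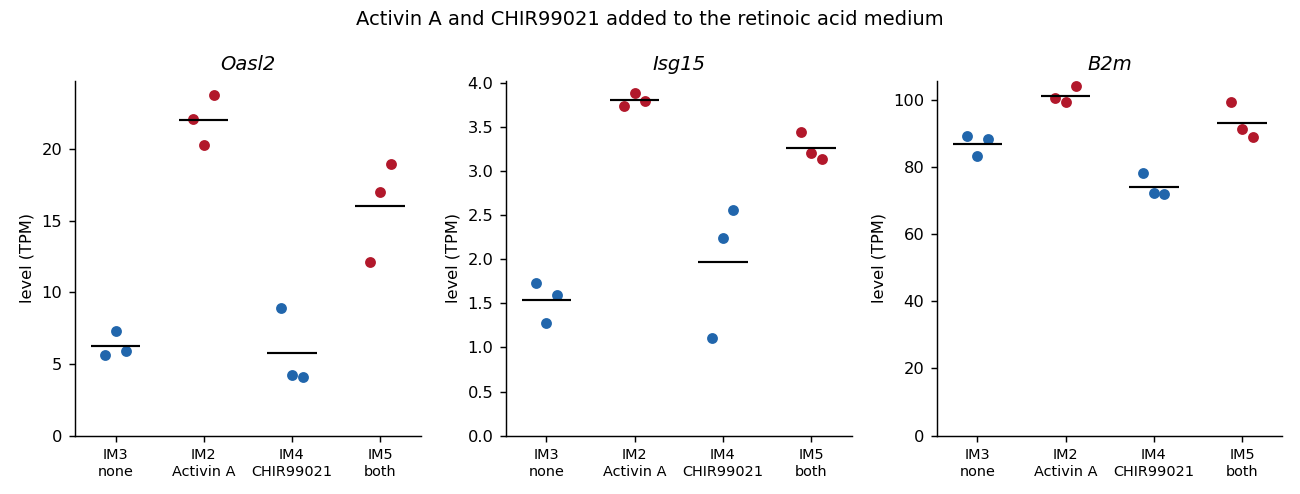
Level in TPM (vertical axes, starting at 0) of Oasl2, Isg15 and B2m in the 4 media that hold retinoic acid, without additions (IM3), with Activin A (IM2), with CHIR99021 (IM4) and with both (IM5). Points are libraries, black lines means of 3 and red marks Activin A; all Oasl2 libraries with Activin A lie above all those without it.

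In all, Activin A changed 2 of 9 members without CHIR99021 (7.24% of all genes, 1 of 9 against 3.8% with the study's thresholds) and 1 of 9 with it (8.0%, and 1 of 9 against 4.09%). The test of whether the Activin A difference depends on CHIR99021 gave no member (0 of 9 in edgeR) an adjusted p under 0.432, where 0.0432% of all genes passed. For Oasl2 the difference between the 2 settings was -0.35 ± 0.27 on the log2 scale (adjusted p = 0.675).

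From IM3 to iSLC, 7 of 9 members passed without the count minimum, against 33.7% of all genes. Isg15, Oasl2, B2m, Ifit3, Irf7 and Ifit1 rose (6 of 9, against 18.6% of genes) and H2-K1 fell (1 of 9, against 15.1%). With the study's thresholds it was Oasl2, B2m and H2-K1, 3 of 9 against 19.2%. The median log2 difference of the 6 interferon-stimulated members was 1.67, and 0.0 over all genes. The rises ranged from 2.13-fold for Ifit1 to 10.3-fold for Isg15. Usp18 and H2-D1 were the 2 members that did not pass.

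**Figure D4:**
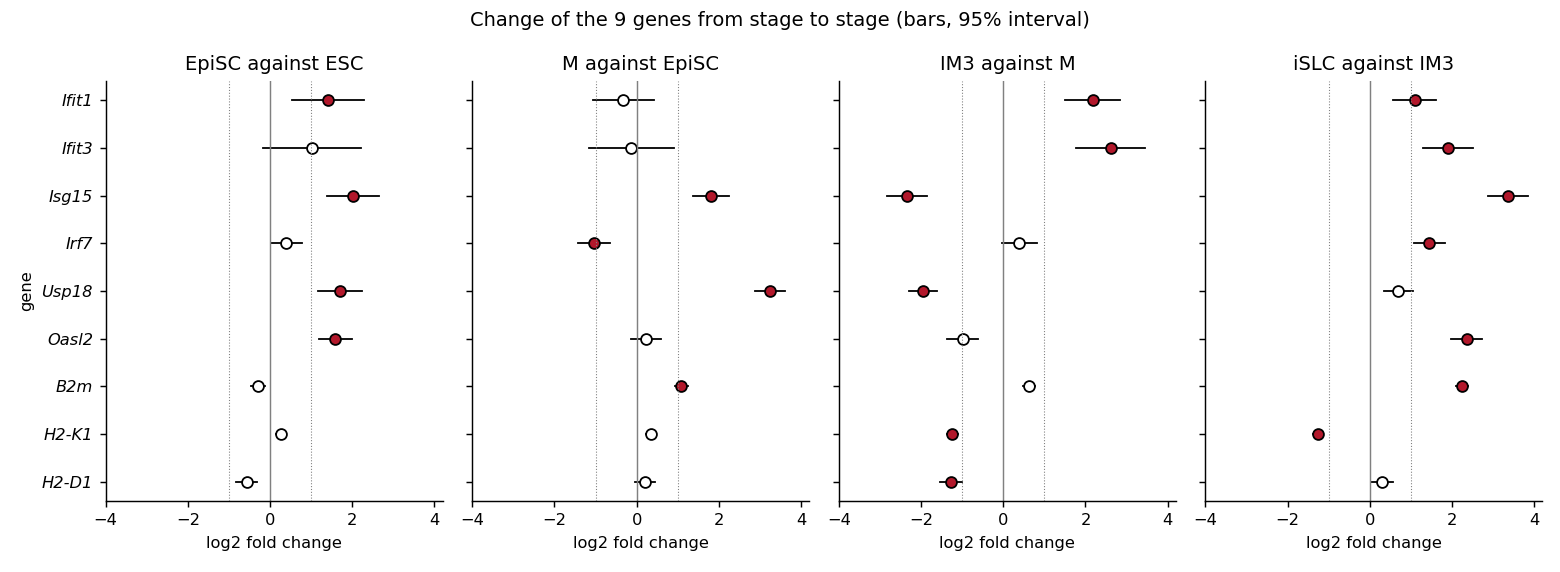
Log2 fold change of each member (rows) with its 95% interval (bars) in 4 successive comparisons, from edgeR on counts of 3 libraries per group. Red points passed the adjusted p and the 2-fold minimum (dotted lines), white points did not; the interferon-stimulated members split at IM3 against M, with Ifit1 and Ifit3 up and Isg15 and Usp18 down, and rose together at iSLC against IM3 apart from Usp18.

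Markers of other cell types were read at the same step, and their part in the member differences was not tested. The 12 leukocyte markers summed to 12.2 to 12.6 TPM in IM3 and 6.84 to 8.46 TPM in iSLC. The defining marker Ptprc (CD45) was at or under 3 counts in every iSLC library, as were Tyrobp and Spi1. Cd68, a macrophage marker, was at 3.43 TPM in IM3 and 4.62 TPM in iSLC, where it made up most of the sum, and Lyz2 was at 0.783 and 0.747 TPM. The 6 endothelial markers summed to 72.3 to 83.6 TPM in IM3 and 27.6 to 30.1 TPM in iSLC. Emcn went against the other 5, at 2.33 TPM in IM3 and 25.0 TPM in iSLC, and made up most of the iSLC sum, while Pecam1 was at 10.1 and 0.397 TPM and Kdr at 18.8 and 0.717 TPM. The 6 red blood cell markers summed to 21.3 to 74.4 TPM in IM3 and 1.65 to 2.18 TPM in iSLC. In bulk RNA, a change in the share of a cell type and a change of RNA per cell cannot be told apart. Of the Sertoli cell markers, Nr5a1 and Dmrt1 were at 93.8 and 213 TPM in iSLC, which includes any reads from the viral copies. Sox9 was at 24.8 TPM, below the 40.0 TPM in IM3, and Amh was at 0.47 to 0.61 TPM, against 0.32 to 0.56 TPM in IM3. Sox8 was at 3.9 TPM in IM3 and 6.93 TPM in iSLC, and Dhh at 0.70 and 1.86 TPM. The libraries also differed in GC content: the median log2 deviation of GC-rich genes minus that of GC-poor genes was 0.299 to 0.458 in iSLC and -0.53 to -0.111 in IM3. With an offset for GC content, 3 and 7 members passed under the 2 rules from IM3 to iSLC, the same numbers as without it. The same measure was negative in all libraries of ESC, M and IM4 (-0.502 to -0.002). It was positive in all of EpiSC, IM1 and IM5 (0.096 to 0.572), and IM2 had -0.085 to 0.258. Other comparisons therefore also cross this difference. ESC, M, IM3 and IM4 also had the highest red blood cell sums, and what underlies either was not tested.

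The rest of the pathway was read from lists of genes. Of 15 interferon genes, none had enough counts to be tested, and 11 never exceeded 3 counts in any library. Ifnb1 reached at most 1.0 count. The other 4 were Ifnz, at up to 12.4 counts in iSLC and 8.7 in IM5, Ifnk, at up to 8.0 in EpiSC, and Ifng and Ifnab, each at up to 4.0 in iSLC. At this depth no difference in an interferon transcript could be tested, and interferon protein was not measured.

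Receptor and signalling genes were present throughout. Ifnar1 was at 18.8 ± 1.3 TPM (SD, n = 3) in ESC, 35.9 ± 0.54 in IM3 and 60.7 ± 0.21 in iSLC, and Ifnar2 at 11.9 ± 0.66, 31.3 ± 2.9 and 64.1 ± 1.6. Of 14 genes of this list, 7 rose and none fell from IM3 to iSLC with the study's thresholds (19.2% of all genes in either direction), with a median log2 difference of 1.05. The 3 largest were Il10rb (4.34-fold), Ifngr2 (3.44-fold) and Irf9 (3.24-fold). Irf9, the DNA-binding partner in the ISRE complex, was at 10.2 ± 1.7 TPM in IM3 and 33.2 ± 2.9 in iSLC. Stat2 was at 10.7 ± 0.81 TPM in IM3 and 19.6 ± 1.2 in iSLC, a log2 difference of 0.88 ± 0.06 that was under the fold minimum. The feedback inhibitor Socs1 followed Activin A, 3.64-fold higher in IM2 than IM3 and 3.44-fold higher in IM5 than IM4, and was 2.95-fold lower in IM3 than IM1.

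Of the same list, 3 of 14 passed the study's thresholds from ESC to EpiSC (8.07% of all genes) and 3 of 14 from EpiSC to M (14.5%). From ESC to EpiSC, Socs1 rose 3.76-fold, and Socs3 fell 4.36-fold. At M, Jak2 (5.11-fold), Jak1 (2.48-fold) and Ifngr1 (2.16-fold) rose. Il10rb rose 4.55-fold in IM1 and 3.97-fold in IM3 over M, and Ifngr2 2.20-fold in IM1.

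**Figure D5:**
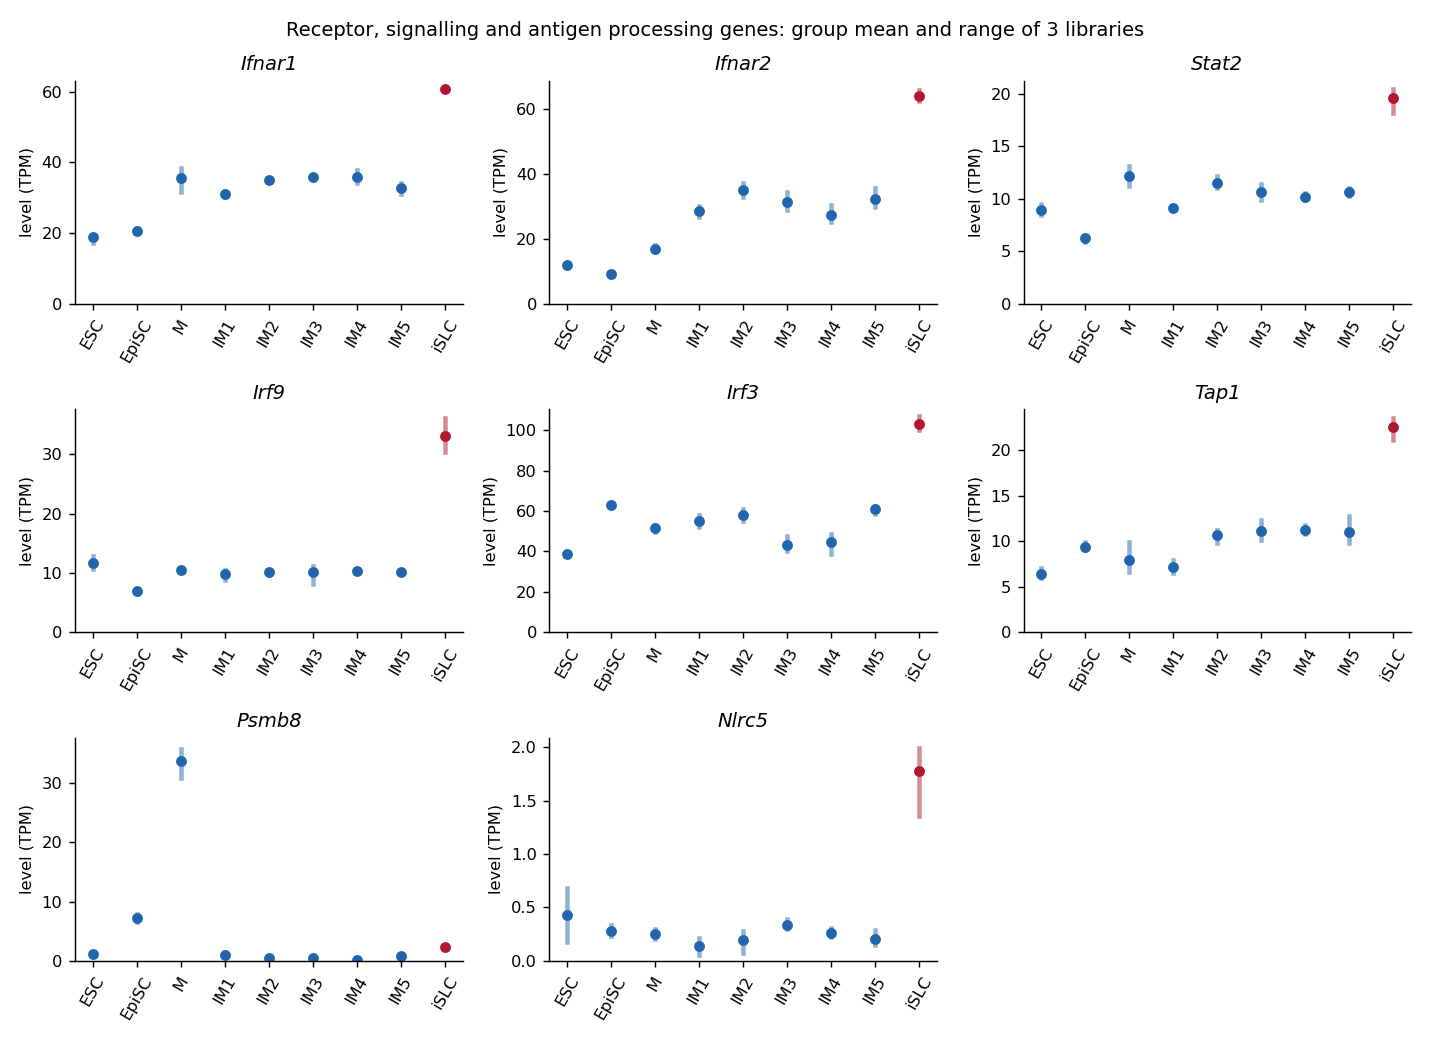
Level in TPM (vertical axes, starting at 0) of 8 receptor, signalling and antigen processing genes in the 9 groups. Points are means and bars the range of 3 libraries, with iSLC in red; Ifnar1, Ifnar2, Stat2, Irf9, Irf3, Tap1 and Nlrc5 are highest in iSLC, while Psmb8 is highest in M.

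The list of 9 interferon regulatory factors and their binding proteins leaves out Irf7. Irf1, an activator of class I and of the immunoproteasome, was at 172 ± 4.9 TPM in M, 2.86-fold above EpiSC, and then fell 17.2-fold in IM1 and 20.7-fold in IM3, to 10.1 ± 0.59 TPM. Irf2 rose 6.21-fold at M and Irf2bp1 2.13-fold in EpiSC. Irf5 rose 22.7-fold from M to IM3 and was 8.85-fold higher in IM3 than IM1, and was 2.59-fold (IM2 against IM3) and 2.50-fold (IM5 against IM4) lower with Activin A. Irf2bp2 rose 3.96-fold in IM1 and 2.57-fold in IM3. From IM3 to iSLC, Irf3, the factor that drives interferon genes on sensing of nucleic acids, rose 2.31-fold (43.1 ± 3.9 to 103 ± 3.3 TPM), and Irf2 rose 2.30-fold.

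Of 20 tested sensors and adaptors of nucleic acid sensing, 7 rose and none fell from IM3 to iSLC (19.2% of all genes in either direction), with a median log2 difference of 0.72. Ifi204, a DNA sensor, went from 0.02 to 0.18 TPM in IM3 to 22.2 to 24.8 TPM in iSLC (log2 7.65 ± 0.28, adjusted p = 6.03e-17). Ddx58, the RNA sensor RIG-I, rose 5.08-fold. Ddx58 was at 38.1 ± 2.0 TPM in ESC, 4.60 ± 0.36 in IM3 and 23.7 ± 1.5 in iSLC. Tmem173 (STING) fell 3.03-fold from ESC to EpiSC and 4.76-fold from EpiSC to M, then rose 24.9-fold in IM1 and 11.7-fold in IM3, and was 2.12-fold lower in IM3 than IM1. Cgas, which makes the ligand of STING, rose 8.16-fold and 9.05-fold over M in the same cultures, and Ifih1 fell 2.82-fold and 3.46-fold. Aim2 (10.8-fold) and Ddx58 (3.72-fold) fell from EpiSC to M.

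Of 47 other interferon-stimulated genes, 16 rose and 2 fell from IM3 to iSLC with the study's thresholds, where 19.2% of all genes passed, and 28 rose and 3 fell without the count minimum, where 18.6% of all genes were higher and 15.1% lower. Their median log2 difference was 1.34. Ifi27 rose 84.0-fold, from 1.04 ± 0.17 to 110 ± 9.3 TPM, and Ifitm3, which blocks virus entry, 13.8-fold, from 33.2 ± 2.1 to 435 ± 21 TPM. Cxcl10, a chemokine that interferon usually induces, fell 8.52-fold, from 3.54 ± 1.0 to 0.39 ± 0.17 TPM. From M to IM3, 3 rose and 14 fell (median -0.87, 14.9% of all genes), led by Gbp2 (25.2-fold), Gbp3 (17.8-fold) and Ifitm1 (14.7-fold), all down. The same step to IM1 gave 3 up and 12 down (median -0.91, 15.7% of all genes), led by Gbp2 (39.2-fold), Gbp3 (11.4-fold) and Dtx3l (10.8-fold).

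The 3 listed GBP genes, guanylate-binding proteins that respond above all to interferon gamma, had their highest group means in M. Gbp3 was at 7.11 ± 0.43 TPM there and Gbp7 at 2.42 ± 0.64 TPM. Gbp2 was at 2.16 ± 0.21 TPM in ESC, 11.4 ± 0.74 in EpiSC and 69.5 ± 3.2 in M, rises of 5.36-fold and 5.85-fold. Gbp3 (5.82-fold) and Uba7, the activating enzyme of Isg15 (5.66-fold), rose from EpiSC to M, and Ifit2 (5.87-fold) and Irgm1 (4.32-fold) from ESC to EpiSC. Over the whole list, counts at these first steps were balanced, 6 up and 5 down in EpiSC (8.07% of all genes) and 6 up and 7 down in M (14.5%). Of single factors, retinoic acid lowered Ifitm1 4.47-fold and Tor3a 2.90-fold and raised Uba7 2.87-fold. Activin A raised Cxcl10 2.65-fold (IM2 against IM3) and 2.20-fold (IM5 against IM4), and Ifitm1 2.74-fold in the latter.

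Some antigen processing genes for class I were also highest in M. Psmb8, a subunit of the immunoproteasome that cuts peptides for class I, was at 1.07 ± 0.29 TPM in ESC, 7.20 ± 0.68 in EpiSC and 33.6 ± 2.6 in M, and at 0.413 ± 0.096 in IM3 and 2.41 ± 0.24 in iSLC. Tap2 was at 11.5 ± 0.20 TPM in M, 0.62 ± 0.16 in IM3 and 7.00 ± 0.33 in iSLC. From M, 10 of the 18 genes of this list fell in IM1 and 9 in IM3 with the study's thresholds, and none rose (15.7% and 14.9% of all genes). The largest falls were those of Psmb8 (40.4-fold and 72.3-fold), Tap2 (22.7-fold and 22-fold) and Psmb9 (15.9-fold and 13.4-fold). Earlier, 6 had risen and none fallen in EpiSC (8.07% of all genes), led by Psmb8 (6.33-fold), Erap1 (3.56-fold) and Psmb10 (2.94-fold). In M, 4 had risen and 1 had fallen (14.5%), and the largest changes were the rises of Psmb8 (4.41-fold), Tap2 (3.64-fold) and Erap1 (3.29-fold).

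From IM3 to iSLC, 5 of these 18 rose and 1 fell, where 19.2% of all genes passed. Tap2 rose 11.9-fold, Tapbp, which bridges the transporter and class I, 2.93-fold, and Rfx5, a factor that binds MHC promoters, 2.55-fold. Tap1 was at 6.40 ± 0.60 TPM in ESC, 11.1 ± 1.1 in IM3 and 22.5 ± 1.3 in iSLC (log2 1.04 ± 0.09 between the last 2, adjusted p = 6.88e-11). Nlrc5, the class I transactivator, was low in every group, at 0.337 ± 0.047 TPM in IM3 and 1.78 ± 0.36 in iSLC (log2 1.59 ± 0.25, adjusted p = 3.48e-06, below the count minimum). Psmb8 rose by 2.21 ± 0.28 (adjusted p = 8.22e-08), also below the count minimum.

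Other class I and class I-like genes split at the same step, with 4 of 21 up and none down by the study's thresholds, near the 19.2% of all genes, and 6 up and 6 down without the count minimum (33.7% of all genes). The largest rises were in 2 genes whose products do not present peptides to T cells: Hfe, an iron regulator (48.9-fold), and Fcgrt, the neonatal Fc receptor (33.6-fold, from 2.21 ± 0.37 to 77.2 ± 1.8 TPM), both of which pair with B2m. H2-Ke6, which despite its name encodes a steroid dehydrogenase, rose 2.95-fold. H2-M5 marked ESC, at 44.3 ± 1.6 TPM, and fell 14.7-fold in EpiSC and 4.95-fold more in M. Fcgrt and Cd1d1 fell 5.98-fold and 3.07-fold from ESC to EpiSC and rose 11.4-fold and 11.2-fold from M to IM3. Cd1d1 rose 5.33-fold from M to IM1 and was 2.11-fold higher in IM3 than IM1. H2-Q4 fell with H2-K1 after M, 4.21-fold in IM1 and 2.76-fold in IM3, and H2-Q7 4.49-fold in IM1. At M, H2-Q10 fell 2.37-fold and H2-T22 rose 2.09-fold. Reads of the H2-Q, H2-T and H2-M genes can be split among near copies, and these values are uncertain.

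Class II is normally limited to antigen-presenting cells, and no gene of that list had a group mean over 7.75 TPM (H2-Eb1). Of 10 tested genes, 1 passed the study's thresholds in any comparison (H2-DMa, 2.23-fold higher in IM3 than M). The master regulator Ciita had group means of at most 0.147 TPM.

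Genes of the NF-kB and inflammatory list were included because NF-kB is known to act on class I promoters. Of 13 tested, 7 rose and none fell from IM3 to iSLC (median log2 1.76, 19.2% of all genes), led by Vcam1 (19.2-fold), Ccl2 (5.05-fold) and Relb (4.16-fold). With retinoic acid 7 were lower and none higher (6.34% of all genes), led by Ccl2 (5.82-fold), Relb (4.14-fold) and Vcam1 (3.31-fold). With Activin A 3 were higher without CHIR99021 (3.8% of all genes), Ccl2 (2.74-fold), Nfkbiz (2.68-fold) and Relb (2.51-fold), and 3 with it (4.09%), Relb (2.77-fold), Ccl2 (2.43-fold) and Nfkbiz (2.22-fold). From M, Ccl2 rose 157-fold in IM1 and 26.9-fold in IM3, Vcam1 71.6-fold and 21.6-fold, Nfkbiz 2.61-fold in IM1, and Relb fell 3.08-fold in IM3. Icam1 (3.33-fold) and Nfkbia (2.13-fold) fell from ESC to EpiSC, and from EpiSC to M Tnfaip3 rose 3.14-fold while Icam1 (2.72-fold) and Nfkbiz (2.25-fold) fell. At the retinoic acid step, H2-K1 itself differed by 0.21 ± 0.064 on the log2 scale (adjusted p = 0.00794, under the fold minimum).

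The likeness of patterns was described by Pearson's r over the 9 group means of log2 CPM from edgeR, without a test. Among the members, Ifit1 and Ifit3 were the closest pair (0.95), followed by Ifit3 and B2m (0.93), Ifit1 and B2m (0.84) and Isg15 and Usp18 (0.82). H2-K1 went against Ifit3 (-0.92) and B2m (-0.89). H2-K1 and H2-D1, the 2 heavy chains, had 0.65, and Irf7 had no more than 0.42 with any other member. All 9 points share the same libraries, and iSLC is 1 of them.

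Over all tested genes, the 2 nearest to each member were, for Ifit1, Mmp16 (0.991) and Gm21981 (0.987), and for Ifit3, Spry1 (0.997) and Klhdc8b (0.992). For Isg15 they were Cst3 (0.980) and Grcc10 (0.978), for Irf7 Rtn4rl2 (0.985) and Mzf1 (0.979), and for Usp18 Trim56 (0.987) and 1700008J07Rik (0.985). B2m was nearest to Il1rap (0.994) and Frg2f1 (0.993), H2-K1 to Cbll1 (0.990) and Phyhip (0.987), and H2-D1 to Ccdc138 (0.991) and Chek2 (0.990). Oasl2 had the weakest neighbours, Tmem239 (0.927) and Samd11 (0.916), both with mean counts under 10. The values are a description of 9 group means.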

How the data were processed

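Per the labels and the study's methods, RNA libraries were made with a TruSeq kit and sequenced in paired ends, adapters were trimmed with cutadapt (version 1.9.1), and the authors aligned and quantified reads with STAR (version 2.5.2a) and RSEM (version 1.3.0), as the submitters' processing notes list them. The authors deposited RSEM expected counts, TPM and FPKM per gene and library. Whether counting used strand is not given in the sources used here. RSEM shares reads that match several genes by estimation, which bears on the class I and IFIT paralogs.

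Symbols from GENCODE were matched to 48349 of 48795 gene IDs (99.96% of counts). Expected counts were rounded and tested with edgeR (version 4.0.16, R 4.3.3): TMM scaling, filterByExpr, 1 quasi-likelihood fit of all 27 libraries without a replicate term, and Benjamini-Hochberg adjustment over 20839 genes. Levels are the deposited TPM. The alternatives were DESeq2 (version 1.42.0), its size factors, limma (version 3.58.1) on log2(TPM + 1) and log2(TPM + 0.1), offsets for length and GC content, other filters, summed paralogs, a replicate block and each library left out. Scripts were tested on simulated data. Replicate pairs differed by more than sampling noise (chi-square per degree of freedom 3.63 to 53.8), so no library was counted as a duplicate. From each list, up to 3 called genes with the largest log2 difference per comparison are named, with a set of pathway genes always named and others given for their level. Some genes of the lists are counted but not reported here by name. The members and lists were chosen with earlier results of these data known.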

Additional observations from a re-analysis of the deposited data

How the results depend on the processing

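Counts of called members moved mainly with the thresholds. Dropping the count minimum from the study's thresholds gave 4 members for EpiSC against ESC, 4 for M against EpiSC, 6 for IM3 against M, 2 for IM3 against IM1, 2 for IM2 against IM3 and 7 for iSLC against IM3. Dropping the fold minimum instead gave 4 for EpiSC against ESC, 5 for IM3 against M, 3 for IM3 against IM1, 2 for IM2 against IM3 and 2 for IM5 against IM4. With limma on log2(TPM + 1), where the pseudocount shrinks low genes, the count without the count minimum was 1 for EpiSC against ESC, 1 for IM3 against IM1 and 1 for IM2 against IM3. The share of all genes was not counted without the fold minimum or with limma, so these counts have no background beside them. Allowing 1 mismatch put the GAS letters in 8 of 8 member windows and in 71.4% of all windows. For the ISRE letters it was 5 of 8 and 35.4%, and for the kappa B letters 2 of 8 and 6.55%. H2-K1 reversed between ESC and EpiSC when 29 class I genes were summed (-0.30 against 0.27), the construction being a sum over other genes. That sum merges H2-K1 and H2-D1, so no count over 9 members exists for it.

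Leaving out 1 library gave 3 members without the count minimum for EpiSC against ESC, 3 to 4 for M against EpiSC, 6 to 7 for IM3 against M, 1 to 2 for IM5 against IM4 (2 without IM4 replicate 3) and 6 to 7 for iSLC against IM3. Over all settings that left out 1 library, 269 of 282 values of single members kept direction and side of the threshold, as did 496 of 522 under the other settings. The replicate numbers did not pair the samples: deviations of same-numbered samples correlated at 0.002 and of others at -0.001. With the replicate block, 3 members were called for iSLC against IM3 and 7 without the count minimum, and the counts of the other comparisons did not move by over 1.5 times. Depth limits Ifit1 and Ifit3 before IM1, where libraries held 0 to 19.0 counts.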
